A study of Mus musculus with 12 samples.

Results

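Ly6g, Itgb2l, Cxcr2, Padi4, Il1b, Retnlg, Wfdc21 and Pglyrp1 are genes of band and segmented neutrophils, the last steps of the granulocyte lineage. They were taken as a fixed list by symbol, and all 8 were found among the 41214 genes counted. All 8 also passed the filter on low counts that left 13822 genes for testing. The RNA came from leukaemic cells of C57/BL6 mice with the NUP98-HOXD13 transgene. It joins parts of a nucleoporin and a homeobox protein, is driven in blood cells by Vav1 regulatory elements, and gives mice first myelodysplasia and later acute leukaemia. Libraries of 2 Gfi1 genotypes were compared, with 2 mice each. The KD mice are Gfi1 KD/KD, labelled homo for their RNA, and the KI mice are Gfi1 KI/wt, labelled het. Mouse lines of these names carry the human GFI1 coding sequence at the Gfi1 locus, so counts on mouse Gfi1 need not show the total dose. Both genotypes have the transgene, no cells without it were analysed, and neither age nor sex of the mice is stated.

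Neutrophils mature in the marrow from promyelocytes through myelocytes and metamyelocytes to band and segmented cells. Granule proteins are made in waves on the way, and the surface receptors and effector proteins listed here come late, when the cells stop dividing and become able to leave the marrow, follow chemokines and attack microbes. Gfi1 encodes a zinc finger repressor that blood progenitors need to take the granulocyte path, and mice without it lack mature neutrophils. In leukaemia these genes serve as markers of how far the cells, or the normal cells among them, have gone along that path.

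The libraries held between 4581593 and 11934542 counts on genes, and 3 counts corresponded to between 0.212 and 0.696 CPM (the count scaled to the library total and by TMM factors). The targeted gene, Gfi1, had 7.22 and 1.12 CPM in the KD mice, against 36.2 and 89.0 CPM in the KI mice. The cells had markers of blood and myeloid cells, which do not tell leukaemic from normal cells: Ptprc, the leukocyte surface gene CD45, had between 329 and 1092 CPM and Mpo, the enzyme of primary granules, between 897 and 2177 CPM over the 4 libraries. The loci Gm10800, Gm10801 and Gm26870 together held 19.4% and 21.2% of counts on genes for the KD mice, against 39.0% and 44.4% for the KI mice. KI replicate 1 stood apart. It had the fewest counts, and its receptors for odours, pheromones and tastes, silent in blood, reached 970 CPM in sum, against 137 to 232 CPM in the other 3 libraries. Of its unique alignments 88.3% fell on no gene, against 63.2% to 68.3% in the other 3 libraries. Xist and the Y-linked genes went with replicate number: Kdm5d had 48.0 CPM in KD replicate 1 and 48.2 CPM in KI replicate 1, against under 1 CPM in both replicates 2, where Xist had 846 CPM in KD and 785 CPM in KI. Ddx3y, also Y-linked, had 18 reads in KD replicate 1, against 334 in KI replicate 1, and at most 2 in either replicate 2. The labels number replicates without naming mice, and by these genes the libraries of each genotype come from different mice. With 2 mice against 2, an exact two-sided permutation test cannot give a p below 0.333, so the tests below are those of edgeR's quasi-likelihood model fitted across all 13822 genes.

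The 4 promoters shown here are of the genes that differed most between the genotypes (Ly6g, Retnlg and Itgb2l) and of the gene whose genotypes overlapped (Il1b). Each is the stretch of 250 bases before the RefSeq start in GRCm38.p6, for Ly6g start 1 of 2. The stretches of Itgb2l and Il1b reach into the gene spans given below, so the starts used for them differ from the ends of those spans. Capitals mark matches on either strand to TTGCNNAA (a C/EBP motif), GAGGAA (a PU.1 motif) or AAATCA (a core of the Gfi1 motif). C/EBP proteins and PU.1 are the main activators of neutrophil genes.
Ly6g, chr15:75155011-75155260, plus strand: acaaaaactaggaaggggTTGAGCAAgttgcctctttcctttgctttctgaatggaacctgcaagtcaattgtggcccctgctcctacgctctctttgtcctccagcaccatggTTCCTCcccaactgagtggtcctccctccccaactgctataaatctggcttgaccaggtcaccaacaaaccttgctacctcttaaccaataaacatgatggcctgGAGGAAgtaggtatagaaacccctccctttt
Retnlg, chr16:48872358-48872607, plus strand: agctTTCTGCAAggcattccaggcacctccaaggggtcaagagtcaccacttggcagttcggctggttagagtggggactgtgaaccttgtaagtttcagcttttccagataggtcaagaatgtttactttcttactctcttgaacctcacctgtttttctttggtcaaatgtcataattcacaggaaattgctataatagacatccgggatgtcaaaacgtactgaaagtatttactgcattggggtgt
Itgb2l, chr16:96443615-96443864, minus strand: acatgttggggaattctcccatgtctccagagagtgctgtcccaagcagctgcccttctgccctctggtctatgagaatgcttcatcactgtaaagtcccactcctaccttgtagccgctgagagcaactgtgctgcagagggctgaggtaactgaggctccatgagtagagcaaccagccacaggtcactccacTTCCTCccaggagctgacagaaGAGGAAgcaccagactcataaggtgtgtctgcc
Il1b, chr2:129371140-129371389, minus strand: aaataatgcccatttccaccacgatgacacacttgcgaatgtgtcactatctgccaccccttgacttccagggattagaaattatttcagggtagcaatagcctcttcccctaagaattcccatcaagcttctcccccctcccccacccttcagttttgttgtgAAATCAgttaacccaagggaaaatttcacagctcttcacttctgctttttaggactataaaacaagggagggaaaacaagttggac
A RefSeq promoter was matched for 7 of the 8 genes, all but Wfdc21. TTGCNNAA was found in 2 of the 7 (Ly6g and Retnlg), against 9.56% of 32851 promoter windows of the same length, and GAGGAA in 4 of the 7 (Ly6g, Itgb2l, Cxcr2 and Pglyrp1), against 23.3%. AAATCA was found in Il1b alone among the 7, against 12.4% of windows. A gene was counted if any of its windows matched, while the shares are per window, so the measures are unlike. Of the 2 Ly6g windows only that of start 1 held TTGCNNAA, and both held GAGGAA. A match describes the letters and is not evidence of binding.

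All 8 genes had a negative log2 fold change, KD minus KI, against 55.5% of all genes tested. For 7 of them both KD libraries lay below both KI libraries, where 23.5% of all genes did so. Il1b was the exception. The median log2 fold change was -1.88, and over all 13822 genes it was -0.06. By size they formed 3 groups: Ly6g, Retnlg and Itgb2l had KI to KD ratios between 10.7 and 21.0, Wfdc21, Pglyrp1 and Cxcr2 between 2.70 and 4.37, and Padi4 and Il1b 1.60 and 1.46. Differences between these fold changes were not tested.

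With Benjamini-Hochberg adjustment over all genes no member was past edgeR's threshold, and 0 of 13822 genes (0%) were called lower and 0 (0%) higher in KD. At an unadjusted p under 0.05, 5 of the 8 members were lower and 0 higher, where 8.34% of all genes were lower and 1.29% higher. Of the genes under that p 86.6% were lower in KD with TMM factors and 22.8% with library size only. DESeq2 called 4 of the 8 lower (Ly6g, Itgb2l, Retnlg and Wfdc21), against 1.05% of the genes it tested. It called 0 of the 8 higher, against 0.0384%, and limma-voom called none in either direction. Without KI replicate 1, which stood apart in receptor genes, edgeR called none of the 8, while it called 104 of the 13822 genes lower and 149 higher. Without any of the other 3 libraries it called Ly6g, Itgb2l and Retnlg lower, and without KD replicate 1 Wfdc21 as well. Over all 13822 genes it called 79 lower without KD replicate 1, 29 without KD replicate 2 and 774 without KI replicate 2. Each of these fits rests on a lone mouse in 1 genotype that is assumed to vary like the others.

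**Figure D1:**
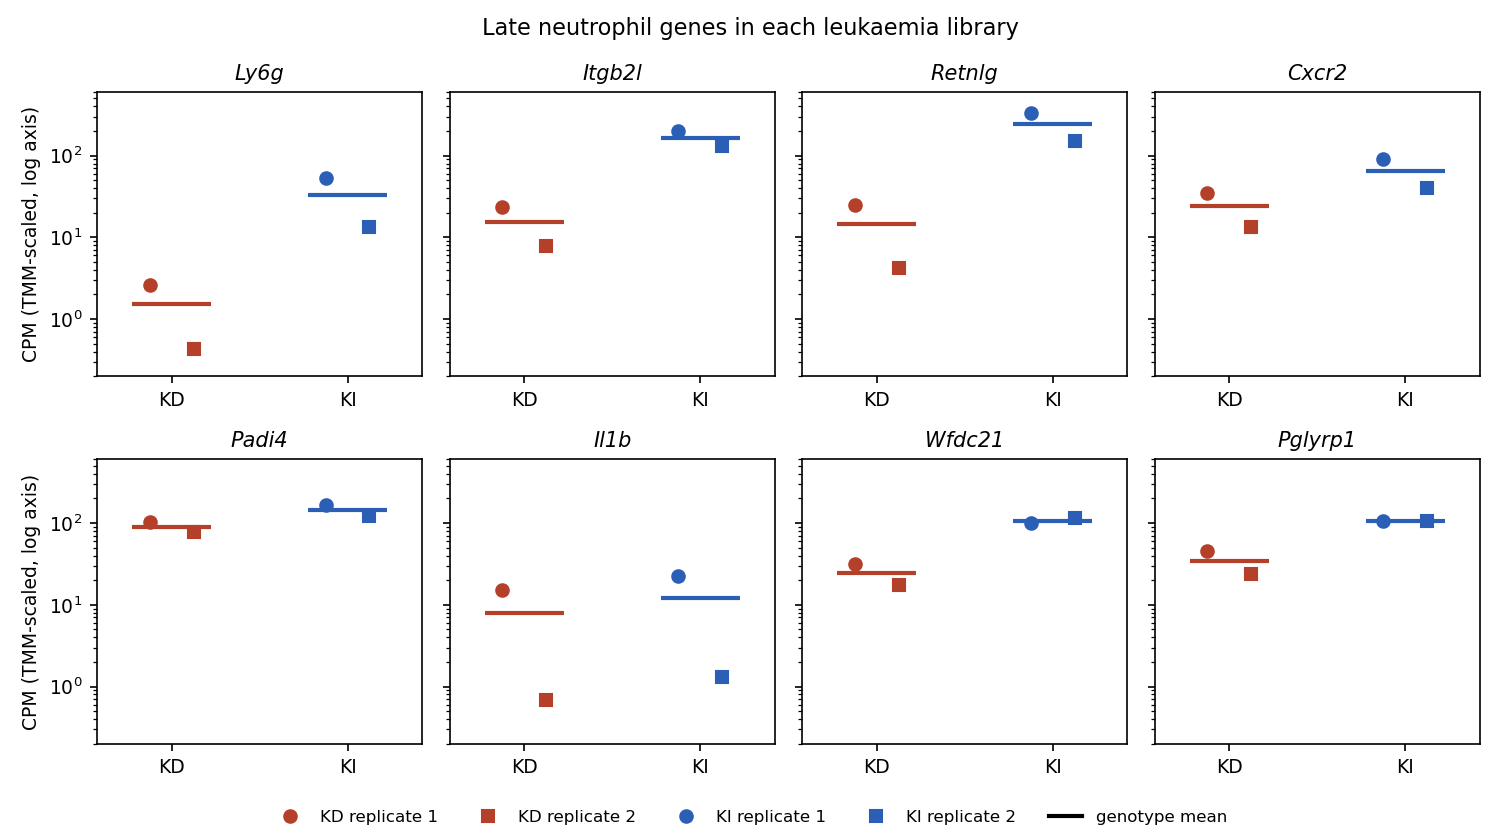
Level of each of the 8 genes in CPM on a log axis, with KD mice in red and KI mice in blue, circles for replicate 1, squares for replicate 2 and a bar at the genotype mean (n = 2). The groups stand apart in 7 panels, and in the Il1b panel both circles lie at 15.4 CPM or more and both squares at 1.31 CPM or less.

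Ly6g and Itgb2l stand for the neutrophil surface. Ly6g (ENSMUSG00000022582, GRCm38.p6 chromosome 15, 75155261 to 75159128) encodes the lipid-anchored surface protein by which mouse neutrophils are stained and sorted. It had 2.62 and 0.432 CPM in the KD mice, against 52.6 and 13.3 CPM in the KI mice. The groups did not overlap, and even the lower KI mouse was far above the higher KD mouse. Only 37 and 5 reads were counted in KD replicates 1 and 2, and the 5 reads allow a level between 0.140 and 1.01 CPM (exact Poisson interval at 95%, counting error only). The log2 fold change was -4.39 ± 1.06 (SE, adjusted p = 0.518 in edgeR, and 0.00101 in DESeq2), at the 0.268 percentile of all fold changes. Leaving out 1 library gave values from -6.20 (KD replicate 1) to -2.92 (KI replicate 1). Fewer neutrophils among the cells and less Ly6g RNA per neutrophil cannot be told apart in bulk RNA, here or for any gene below.

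Itgb2l (ENSMUSG00000000157, chromosome 16, 96422288 to 96443664) encodes an integrin beta chain related to the beta 2 chain and is used mainly by maturing neutrophils. Its level was 23.2 and 7.78 CPM in the KD mice, against 202 and 130 CPM in the KI mice, on between 90 and 1097 reads. Every KI value was more than 5 times every KD value. Its log2 fold change was -3.42 ± 0.61 (SE, adjusted p = 0.518 in edgeR, and 3.4e-05 in DESeq2). Leaving out 1 library at a time gave values between -4.41 and -2.84.

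Relatives with high counts overlapped between the genotypes or lay the other way. Itgb2, the beta 2 chain that pairs with several alpha chains on all leukocytes, had 548 and 422 CPM in the KD mice, against 483 and 350 CPM in the KI mice, and the groups overlapped (log2 0.22 ± 0.34). Its partner Itgam, the CD11b chain, had a log2 fold change of -0.05 ± 0.49, with groups that overlapped as well, and 0.31 with library size only. In the Ly6 cluster, Ly6c2, which monocytes and immature neutrophils express, is the nearest tested gene below Ly6g, 43.2 kb away. It had 489 and 881 CPM in the KD mice, against 324 and 744 CPM in the KI mice (log2 0.36 ± 0.53). Ly6e, a broadly expressed member of the same family, lay the other way from Ly6g, at 376 and 476 CPM in the KD mice, against 190 and 94.4 CPM in the KI mice (log2 1.58 ± 0.43, adjusted p = 0.518 in edgeR). Relatives with few reads included some that lay the same way as Ly6g. Ly6a had a log2 fold change of -1.31 ± 0.98 on at most 19 reads, with overlapping groups. Ly6d had 1 and 4 reads in the KD mice, against 2 and 5 in the KI mice, and Ly6h 9 and 2, against 12 and 6. Ly6k had 146 reads in KI replicate 2 and at most 1 in each other library. In CPM all of these were lower in both KD mice, as were 23.5% of all genes tested, but none was tested.

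Among 25 tested genes of neutrophil surface, adhesion and chemotaxis other than the members, 12 had positive and 13 negative fold changes, with a median of -0.03. None passed edgeR's test, and 5 were lower and 0 higher at an unadjusted p under 0.05. Without overlap 8 of the 25 lay lower and 3 higher, where 23.5% of all genes lay lower and 14.5% higher. Those lower in both KD mice included Cd177, a surface glycoprotein of neutrophils, with 199 and 228 CPM in the KD mice, against 727 and 621 CPM in the KI mice (log2 -1.66 ± 0.31). Trem1 and Trem3, activating receptors of myeloid cells, lay at -1.10 ± 0.30 and -1.73 ± 0.47, and the formyl peptide receptor Fpr1 at -1.44 ± 0.75. Csf3r, the receptor for granulocyte colony-stimulating factor, had 186 and 80.9 CPM in the KD mice, against 200 and 72.7 CPM in the KI mice, and its groups overlapped. The median of these 25 genes changed sign with RLE scaling (0.06), without the genes that took over 1% of the counts (0.18) and with library size only (0.34).

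Cxcr2 (ENSMUSG00000026180, chromosome 1, 74153994 to 74161246) encodes the chemokine receptor that draws mature neutrophils out of the marrow and into inflamed tissue. It had 34.8 and 13.2 CPM in the KD mice, against 90.0 and 40.2 CPM in the KI mice. The higher KD mouse came close to the lower KI mouse, and replicate 1 was above replicate 2 in both genotypes. The log2 fold change was -1.43 ± 0.61 (SE, adjusted p = 0.531 in edgeR). It was -0.58 without KI replicate 1, and with library size only (-1.05) or without the 3 genes that took over 1% of the counts (-1.22) the groups overlapped. The chemokines that Cxcr2 binds were hardly present: Cxcl1, Cxcl2, Cxcl3, Cxcl5, Ppbp and Cxcl15 had at most 12 reads in any library and did not pass the low-count filter. Cxcr1, the sister receptor, had 3 and 1 reads in the KD mice, against 29 and 2 reads in the KI mice, and was not tested. Cxcr4, the receptor that holds neutrophils in the marrow, had 269 and 442 CPM in the KD mice, against 243 and 356 CPM in the KI mice, with overlapping groups (log2 0.25 ± 0.39). Of the signalling genes below the receptor, Gnai2, Grk2 and Rac2 had log2 fold changes between -0.17 and 0.14, with overlapping groups, those of Grk2 and Rac2 changing sign with library size only. Arrb2, the arrestin that binds the active receptor, lay at 103 and 115 CPM in the KD mice, against 207 and 290 CPM in the KI mice (log2 -1.19 ± 0.31). None of the 8 tested genes of this list passed edgeR's test, with 1 lower and 0 higher at an unadjusted p under 0.05.

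Padi4 (ENSMUSG00000025330, chromosome 4, 140745508 to 140774239) encodes the deiminase that turns arginine into citrulline in histones and is needed to release neutrophil extracellular traps. Its level was 103 and 78.8 CPM in the KD mice, against 167 and 123 CPM in the KI mice. The groups did not overlap, and the gap between the nearest mice was small beside that of Ly6g or Itgb2l. On the log2 scale the difference was -0.68 ± 0.31 (SE, adjusted p = 0.548 in edgeR), a KI to KD ratio of 1.60. It was -0.30 without KI replicate 1, and with library size only it was -0.28 and the groups overlapped.

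The deiminase genes lie side by side on chromosome 4. Padi3, 11.1 kb from Padi4, had 1.06 and 1.38 CPM in the KD mice, against 4.17 and 7.00 CPM in the KI mice (log2 -2.19 ± 0.71), on at most 59 reads. Padi1, on at most 20 reads, lay at -3.35 ± 1.02. Padi2, a deiminase of many tissues, had 95.8 and 77.7 CPM in the KD mice, against 104 and 2.73 CPM in the KI mice, so its groups overlapped and 1 KI mouse was far below the other 3. Its log2 fold change was 0.72 ± 1.32. Of the 14 tested deiminase and trap genes, which include primary granule enzymes, 8 had positive and 6 negative fold changes (median 0.02, or -0.05 with upper quartile scaling). None passed the test, and 4 were lower and 0 higher at an unadjusted p under 0.05. Their most abundant genes were Mpo (0.28 ± 0.54), Cybb of the oxidase (0.05 ± 0.41) and the protease Prtn3 (1.03 ± 0.51) on one side, and the cathelicidin Camp (-4.03 ± 0.45) on the other. Only Cybb among these changed sign with scaling, at -0.06 with upper quartile factors.

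Il1b (ENSMUSG00000027398, chromosome 2, 129364569 to 129371164) encodes interleukin 1 beta, a fever-causing cytokine that stimulated neutrophils share with monocytes. It had 15.4 and 0.691 CPM in the KD mice, against 22.7 and 1.31 CPM in the KI mice. Both replicates 1 were high and both replicates 2 were low, so that the genotypes overlapped fully. The reads were 217 and 8 in the KD mice, against 98 and 11 in the KI mice. The log2 fold change was -0.55 ± 1.61 (SE, adjusted p = 0.990 in edgeR). It turned positive in the fits that left out KD replicate 2 (0.38) or KI replicate 1 (2.81).

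On the log2 scale replicate 1 exceeded replicate 2 for Il1b by 3.96 in KD and by 3.83 in KI (log2 CPM with a prior count of 3). Only 5 other genes of the 13822 tested differed by at least 3.83 in this direction in both genotypes. They were the Y-linked Kdm5d, Uty and Eif2s3y, and Ace and Eya1, all 5 named after their values were seen. Sex-linked genes and any other difference that follows replicate number cannot be told apart in these 4 mice. Within replicate 1 the Il1b difference, KD minus KI, was -0.56, and within replicate 2 it was -0.69 on counts of 8 and 11, whose Poisson intervals overlap.

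The other 17 tested genes of interleukin 1 production and response had 12 positive and 5 negative fold changes, with a median of 0.25. None passed the test, and 1 was lower and 0 higher at an unadjusted p under 0.05. Il1r2, the decoy receptor carried by neutrophils, had 5.80 and 16.5 CPM in the KD mice, against 18.3 and 48.8 CPM in the KI mice (log2 -1.60 ± 0.69). Il1rn, the receptor antagonist, had 3.25 and 2.16 CPM in the KD mice, against 20.2 and 2.14 CPM in the KI mice, so that KI replicate 1 alone stood high. The inflammasome adaptor Pycard had 64.9 and 117 CPM in the KD mice, against 39.9 and 55.5 CPM in the KI mice (log2 0.93 ± 0.39). Gsdmd, the pore protein through which the cytokine leaves the cell, and the adaptor Myd88 lay at 0.38 ± 0.26 and 0.63 ± 0.27, both without overlap. Il1a, the neighbouring cytokine gene, had at most 5 reads in any library and was not tested.

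Retnlg, Wfdc21 and Pglyrp1 encode secreted proteins. Retnlg (ENSMUSG00000022651, chromosome 16, 48872608 to 48874498), a resistin-like secreted protein of mouse marrow and neutrophils, had 24.7 and 4.23 CPM in the KD mice, against 337 and 153 CPM in the KI mice. The groups did not overlap, and KD replicate 2 was the lowest of the 4. The difference was -4.07 ± 0.92 on the log2 scale (SE, adjusted p = 0.518 in edgeR, and 0.00011 in DESeq2), a KI to KD ratio of 16.8. Leaving out KD replicate 1 gave -5.85, and leaving out KI replicate 1 gave -3.21.

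Wfdc21 (ENSMUSG00000051748, chromosome 11, 83746940 to 83752646) encodes a small secreted protein of the whey acidic protein family. It had 31.5 and 17.3 CPM in the KD mice, against 99.3 and 114 CPM in the KI mice. The KI mice lay close to each other and well above both KD mice. The fitted difference was -2.13 ± 0.38 on the log2 scale (SE, adjusted p = 0.518 in edgeR, and 0.0046 in DESeq2), with values between -2.62 and -1.76 when 1 library was left out. Pglyrp1 (ENSMUSG00000030413, chromosome 7, 18884690 to 18890438) encodes a peptidoglycan-binding antibacterial protein of neutrophil granules. Its level was 45.2 and 23.7 CPM in the KD mice, against 106.5 and 106.4 CPM in the KI mice. The KI values were nearly equal, and the KD values differed from each other by more than the KI values did. The log2 fold change was -1.63 ± 0.39 (SE, adjusted p = 0.518 in edgeR, and 0.0919 in DESeq2).

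Other genes of the same families were lower, level or higher. Slpi, a protease inhibitor of the Wfdc21 family, had 52.0 and 59.4 CPM in the KD mice, against 53.8 and 53.9 CPM in the KI mice (log2 0.05 ± 0.27, or 0.47 with library size only and -0.04 with upper quartile factors). Wfdc17, another member, had 83.8 and 40.0 CPM in the KD mice, against 46.6 and 3.92 CPM in the KI mice (log2 1.31 ± 1.05). Pglyrp2, on at most 14 reads in any library, lay at -1.27 ± 1.02. Retn, Retnla and Retnlb, the other resistin genes, had at most 15 reads and were not tested. The nearest neighbours of other families varied. Heatr6, 0.991 kb from Wfdc21, had a log2 fold change of 0.20 ± 0.31, and Ccdc61, 0.445 kb from Pglyrp1, had -0.11 ± 0.51, both with overlapping groups. Farther off, Trat1 near Retnlg lay at -3.21 ± 1.28, and B3galt5 and Dscam beside Itgb2l at -1.50 ± 0.75 and -1.80 ± 1.01. Psg29, on the other side of Pglyrp1 but 1669 kb away, lay at -2.39 ± 0.91. These last 4 had at most 42 reads in any library. Their groups did not overlap, where 23.5% of all genes lay lower. Tns1 beside Cxcr2 also lay lower without overlap (-1.07 ± 0.43), and Arpc2 on its other side lay higher (0.07 ± 0.28). Zfp41, Dzip3, Rcc2, Ckap2l and Sirpa, neighbours of Ly6g, Retnlg, Padi4 and Il1b, overlapped, at between -0.25 and 0.81.

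**Figure D2:**
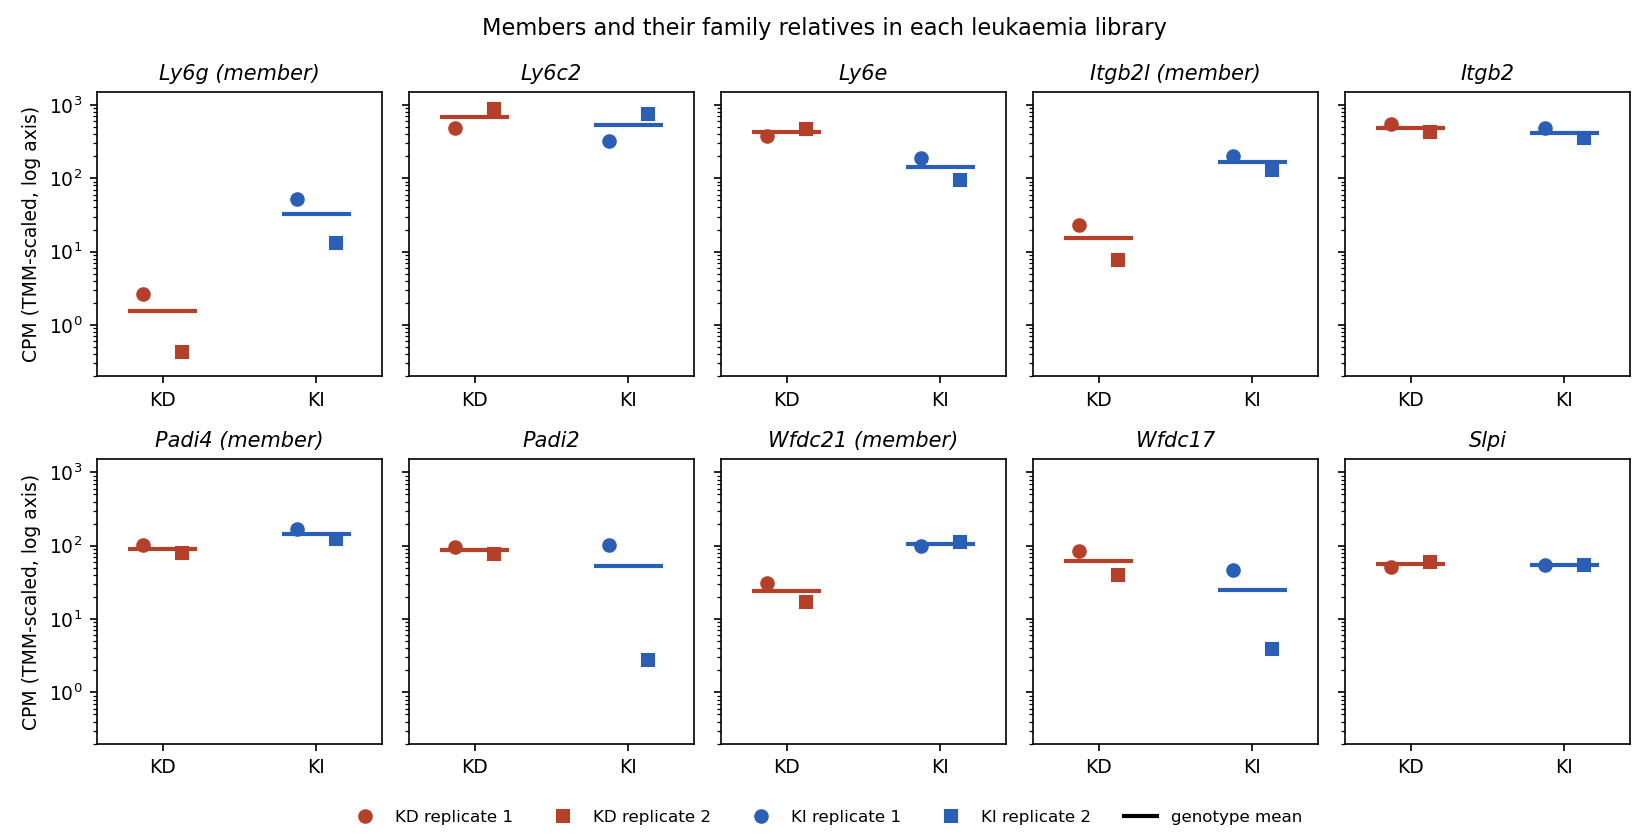
Level in CPM on a log axis of Ly6g, Itgb2l, Padi4 and Wfdc21, each followed by genes of its family, with KD in red left of KI in blue and a bar at the genotype mean (n = 2). Ly6c2, Itgb2 and Slpi overlap between genotypes, Ly6e is higher in both KD mice, and Padi2 and Wfdc17 are low in KI replicate 2.

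Of 29 tested genes listed as secreted neutrophil effectors, other than the members, 23 had negative and 6 positive fold changes, with a median of -1.66. The list includes near-identical stefin A copies, whose groups all overlapped, and shares Cd177, Camp and Il1rn with lists described above. With library size only 18 were negative and 11 positive (median -1.12). None passed edgeR's test, and 10 were lower and 0 higher at an unadjusted p under 0.05. Without overlap 12 of the 29 lay lower and 0 higher, where 23.5% of all genes lay lower and 14.5% higher. Asprv1, a skin-type protease also found in neutrophils, had 2.26 and 0.950 CPM in the KD mice, against 16.2 and 30.1 CPM in the KI mice (log2 -3.83 ± 0.64). Lrg1, a glycoprotein of neutrophil granules, had 46.6 and 18.1 CPM in the KD mice, against 67.0 and 95.3 CPM in the KI mice (log2 -1.33 ± 0.51). Mmp9, the gelatinase of tertiary granules, had 72.0 and 6.05 CPM in the KD mice, against 349 and 103 CPM in the KI mice (log2 -2.53 ± 1.18). The abundant genes S100a9, Ngp, S100a8, Ltf and Camp also lay lower in both KD mice without overlap. Their log2 fold changes were -2.81 ± 0.65, -3.78 ± 0.65, -2.39 ± 0.58, -3.41 ± 0.81 and -4.03 ± 0.45. Lyz2, the lysozyme of monocytes and granulocytes alike, had 4738 and 3381 CPM in the KD mice, against 4756 and 2019 CPM in the KI mice, and its groups overlapped (log2 0.26 ± 0.58). Chil3, Mmp8 and Hp, abundant as well, overlapped too, at -0.33 ± 0.50, -0.06 ± 0.35 and -0.47 ± 0.56. Each of these turned positive with library size only.

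**Figure D3:**
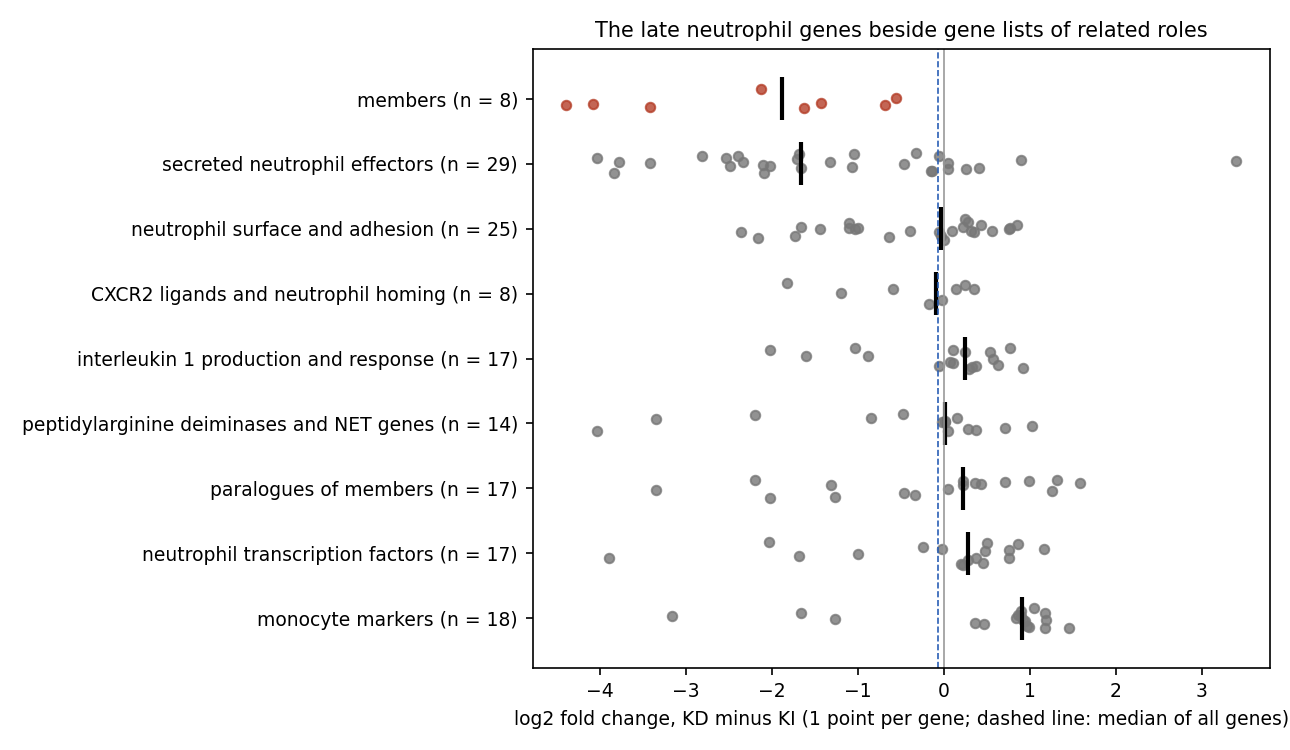
Log2 fold change, KD minus KI, of each tested gene in the 8 members (red) and in 8 gene lists of related roles (grey), with a black bar at each median and a dashed line at the median of all genes. The members (median -1.88) and the genes listed as secreted neutrophil effectors (-1.66) lie to the left, and the monocyte markers (0.91) to the right.

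The 8 genes also varied between mice of 1 genotype. All 8 were higher in KD replicate 1 than in KD replicate 2, where 38.7% of all genes were, and 7 of 8 were higher in KI replicate 1 than in KI replicate 2, where 49.6% were. The exception among the KI mice was Wfdc21, and Pglyrp1 was level there. Summed over the 8 genes the level was 280 and 146 CPM in the KD mice, against 1077 and 681 CPM in the KI mice. For Ly6g, Itgb2l and Retnlg together it was 50.5 and 12.4 CPM in the KD mice, against 591 and 296 CPM in the KI mice. Within replicate 1 all 8 differences, KD minus KI, were negative, from -4.18 for Ly6g to -0.56 for Il1b. Within replicate 2 they were also all negative, from -5.07 for Retnlg to -0.64 for Padi4.

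**Figure D4:**
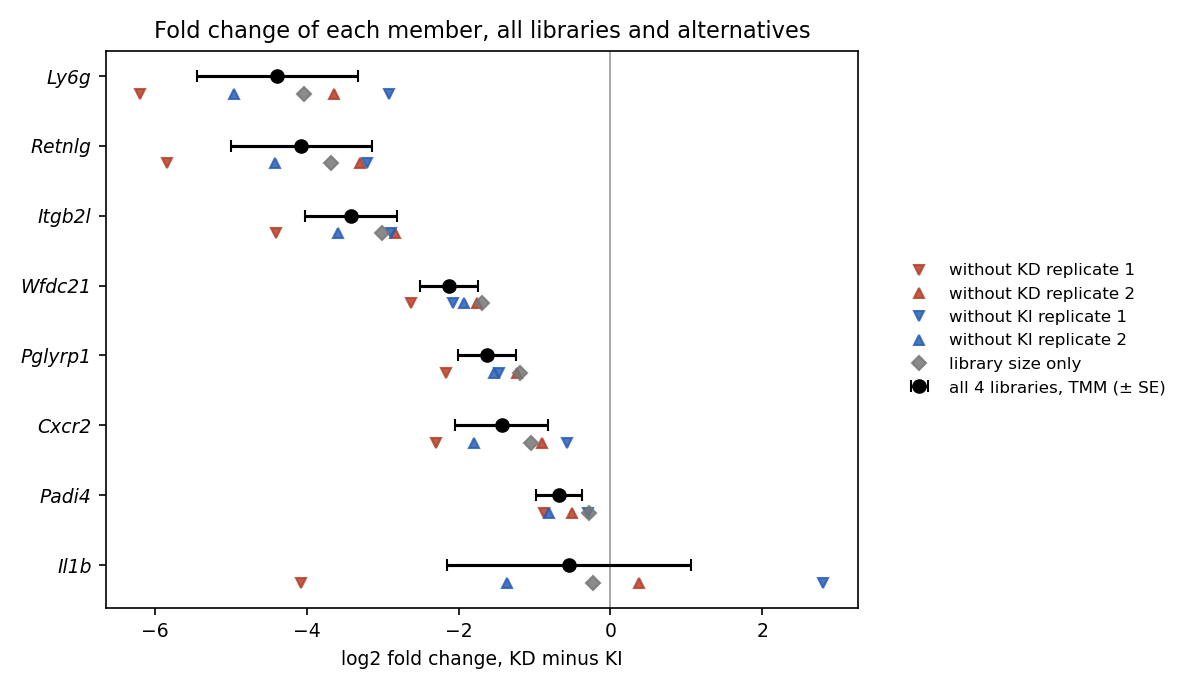
Log2 fold change, KD minus KI, of each member with all 4 libraries (black, with the SE derived from edgeR's F statistic) and, below it, without each library in turn (triangles) and with library size only (diamonds). Ly6g, Retnlg and Itgb2l stay at or below -2.84 throughout, and Il1b runs from -4.07 to 2.81.

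A ratio taken within a library needs no scaling between libraries. Per 1000 reads on the leukocyte genes Ptprc, Spi1, Tyrobp, Fcer1g and Laptm5, Ly6g had 1.21 and 0.323 reads in the KD mice, against 31.4 and 14.3 in the KI mice. Retnlg had 11.4 and 3.17 in the KD mice, against 201 and 165 in the KI mice. Padi4 had 47.4 and 58.9 in the KD mice, against 99.7 and 133 in the KI mice. By this ratio too, 7 of the 8 genes lay lower in both KD mice and Il1b overlapped. The share of all genes that lay lower by this ratio is not given, so the count has no background. The 5 leukocyte genes themselves had positive fold changes, with a median of 0.59, so their own difference adds to these ratios.

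The 6 genes, outside the list, whose levels over the 4 libraries came nearest to the mean profile of the 8 members were Actn1, Cd24a, Adam8, Ets1, S100a8 and Ly75. The measure was the root mean square distance of centred log2 CPM over 4 libraries among 6379 genes of at least 20 CPM on average. It was 0.158 for Actn1, between 0.262 and 0.409 for the others, and 1.50 for the median gene. Cd24a, a surface protein of neutrophil precursors and other immature blood cells, had 54.1 and 21.0 CPM in the KD mice, against 182 and 85.8 CPM in the KI mice. S100a8, a subunit of calprotectin, had 889 and 344 CPM in the KD mice, against 3284 and 3176 CPM in the KI mice.

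No gene of the lists of other cell types or of transcription factors passed edgeR's test, so the following are levels and counts. At an unadjusted p under 0.05 the monocyte markers had 1 lower and 4 higher, the erythroid markers 14 lower, and the T and NK cell markers 5 lower. Of 18 monocyte markers 15 had positive fold changes. In both KD mice 11 lay higher (14.5% of all genes did so) and 2 lower (23.5% of all genes). The 18 markers summed to 6978 and 6388 CPM in the KD mice, against 4792 and 2796 CPM in the KI mice. The 15 erythroid markers tested were all lower without overlap, where 23.5% of all genes were. They summed to 77.1 and 4.58 CPM in the KD mice, against 686 and 601 CPM in the KI mice. Markers of T and NK cells summed to 18.8 and 25.8 CPM in the KD mice, against 120 and 79.7 CPM in the KI mice, with 14 of 15 tested genes negative. Of 5 tested B cell markers 4 were negative (median -1.58), and of 8 tested stroma and endothelium markers 7 were (median -1.81). Several of these lymphoid and stromal genes were highest in KI replicate 1, the library with the most receptor counts. Lck, a T cell kinase, had 2.76 and 3.72 CPM in the KD mice, against 17.9 and 1.90 CPM in KI replicates 1 and 2. Others were highest in KI replicate 2. Cd3e, the most abundant tested T cell marker, had 1.34 and 0.518 CPM in the KD mice, against 6.26 and 37.3 CPM in KI replicates 1 and 2. Cd3g, Cd5 and Cd6 were also highest in KI replicate 2. The 9 tested eosinophil, basophil and mast cell markers were split, with 5 positive and 4 negative (median 0.03). Prg2, the eosinophil major basic protein, had 102 and 14.2 CPM in the KD mice, against 4.41 and 1.78 CPM in the KI mice. The part of these levels in the late neutrophil differences was not tested. Of 17 transcription factors of granulocyte maturation 11 were positive and 6 negative (median 0.29), with 3 lower and 2 higher at an unadjusted p under 0.05. The 3 lower were Cebpe, Mxd1 and Gfi1, which is the targeted gene itself. Cebpe, needed for the late granule genes, had 28.5 and 27.0 CPM in the KD mice, against 51.7 and 176 CPM in the KI mice (log2 -2.04 ± 0.60). Mxd1, a Myc antagonist of maturing granulocytes, had 65.7 and 31.2 CPM in the KD mice, against 179 and 133 CPM in the KI mice (log2 -1.69 ± 0.44). Cebpa and Spi1, which act earlier, lay at -0.02 ± 0.50 (0.44 with library size only) and 0.37 ± 0.26. Cebpb, a factor of emergency granulopoiesis and monocytes, and Irf8, which directs monocyte fate, were higher in both KD mice, at 0.75 ± 0.29 and 0.87 ± 0.33.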

How the data were processed

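The RNA was sequenced from TruSeq Stranded mRNA libraries of 4 mice. The authors deposited raw counts per Ensembl gene, and per the submitters' processing notes TopHat2 2.0.10, SAMtools, HTSeq and DESeq were used with GRCm38. How the counting treated strand, and which annotation and filters it used, is not stated. Xist had 9795 counts in KD replicate 2 and 6613 in KI replicate 2, against 10 in each for Tsix on the opposite strand, so the counts do not come from the opposite strand alone. Summary entries that name no gene (93.2% to 97.9% of each library's total) were left out, most of them alignments that were not unique. Near-identical gene copies may therefore have lost counts. Of 41214 genes, 40254 had a symbol. The 8 chromatin libraries are not analysed here: the 1616 columns of the 4 promoter tables name neither antibody nor mouse.

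Counts were analysed in R 4.3.3 with edgeR 4.0.16: filterByExpr by genotype, TMM scaling, glmQLFit, and glmQLFTest on genotype alone, adjusted by Benjamini-Hochberg over all genes at 0.05. Fold changes are log2 values, KD minus KI. The SE was derived from the test, as the absolute log2 fold change over the square root of the quasi-likelihood F statistic. The fit was tested on simulated data. Alternatives were other scalings (RLE, upper quartile, library size only), other filters, DESeq2 1.42.0, limma-voom (limma 3.58.1), the replicate number as a block, leaving out each library with the same genes tested, and leaving out the 3 genes with over 1% of a library's counts.

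Members and lists were chosen with earlier results of these data known. Named were the members, Gfi1, the 4 most abundant tested genes of each list, every tested family relative, and the 6 genes nearest in profile. Not every gene so picked is printed, and other list genes named were chosen after their values were seen. The p-values reflect the spread among these 4 libraries only, taken as 1 a mouse. Poisson intervals cover counting error only. Gene positions and promoters are RefSeq's in GRCm38.p6.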

Additional observations from a re-analysis of the deposited data

How the results depend on the processing

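All 8 members kept a negative fold change under the 3 other scalings, both other filters, DESeq2, limma-voom, the replicate block and without the genes over 1% of counts. Il1b turned positive when KD replicate 2 (0.38) or KI replicate 1 (2.81) was left out and lay at -4.07 when KD replicate 1 was, so that 7 to 8 members were negative when 1 library was left out. The members' median ran from -3.35 to -1.50 in those 4 fits. Scaling moved the median of all genes from -0.06 to 0.37 with library size only and to -0.14 with upper quartile factors. It was 0.10 without the genes over 1% of counts. The members' median lay at -1.81 to -1.78 from it in each case, TMM and RLE included. A change of scaling shifts all fold changes by nearly the same amount, so this distance could hardly change and tests nothing about the members. With library size only, 5 members lay lower without overlap, and the share of all genes that did so by that scaling is not given. Of 1898 genes with an unadjusted p under 0.05 by that scaling 22.8% were lower in KD, against 86.6% of 1331 with TMM.

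Calls depended on the method. Against 0 genes in edgeR with all 4 libraries, 140 were called lower and 29 higher with no low-count filter, 137 lower and 5 higher by DESeq2, and 7 lower with the replicate block. Members called lower were 3 with no filter, 4 by DESeq2 and 3 with the replicate block (Ly6g -4.54, Itgb2l -3.58 and Retnlg -4.42, each with edgeR adjusted p = 0.0461). Without 1 library, 29 to 774 genes were called lower, 3 to 149 higher, and 0 to 4 members lower. The replicate numbers are not said to pair the mice. Replicate 1 minus replicate 2 correlated between the genotypes at r = 0.249 across 13822 genes, which are not independent. Why the calls differ between these fits was not tested. Depth limits Ly6g and Il1b most, with 5 and 8 reads in KD replicate 2.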

Other observations

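The stefin A genes, cysteine protease inhibitors abundant in mature mouse neutrophils, did not follow the order of mice seen for the late neutrophil genes. Stfa2l1 had 55.5 and 3.80 CPM in the KD mice, against 12.5 and 239 CPM in the KI mice, and BC100530 had 151 and 17.5 CPM in the KD mice, against 9.74 and 931 CPM in the KI mice. Stfa2, Stfa3 and Gm5483 were likewise highest in KI replicate 2 and second in KD replicate 1. Stfa1 alone of the 6 was highest in KD replicate 1, at 90.1 and 8.81 CPM in the KD mice, against 9.51 and 0.475 CPM in the KI mice. These genes are near-identical copies, so their single values are uncertain, and none passed edgeR's test (adjusted p between 0.549 and 0.859).

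KI replicate 2 was low in several genes that the other 3 libraries expressed. Fn1, fibronectin, had 1249 and 419 CPM in the KD mice, against 837 and 3.80 CPM in the KI mice, and Padi2 and Wfdc17 were lowest in the same mouse. These genes were chosen after their values were seen.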
